A study of Mus musculus with 2 samples.

Results

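The genes described here are 7 long noncoding RNA genes of the mouse: Neat1 and Malat1, which make nuclear RNAs, Gas5, Snhg1, Snhg8 and Snhg12, which host small nucleolar RNAs (snoRNAs), and H19, an imprinted gene. They were chosen by name, by pairing the Ensembl identifiers of the read count table with GENCODE M21 symbols. Earlier results of these data were known when they and the related lists below were chosen. Of the 7 genes, 5 were matched among the 35275 genes of the table, and Snhg1 and Snhg8 are not analysed here beyond their annotation and sequence. RNAseq compared untreated control AML12 cells with senescent AML12 cells, which had been exposed to hydrogen peroxide. AML12 is a mouse hepatocyte line, established from a mouse carrying a human TGF-alpha transgene and labelled as CD-1 strain, liver, male, with an age of 3 months. Peroxide was given daily on 6 days, each time for 1 h followed by 23 h of recovery, with a dose of 1 mM on day 1 and 750 μM from then on, and the medium of both groups held dexamethasone. RNA of 3 samples per condition was pooled into 1 library, so there was no replicate and no test, and every ratio below compares 2 libraries of 1 cell line rather than the conditions.

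Neat1 is the RNA scaffold of paraspeckles, nuclear bodies that hold RNA and RNA-binding proteins, and it is known as a target of p53. Malat1 is one of the most abundant RNAs of the nucleus and gathers in nuclear speckles beside splicing factors. The host genes carry snoRNAs in their introns, of which box C/D snoRNAs guide ribose methylation and H/ACA snoRNAs guide pseudouridylation, mostly of ribosomal RNA, while their spliced exons code for no stable protein and are commonly destroyed by nonsense-mediated decay. Gas5 is named for its accumulation in growth-arrested cells. H19 is abundant in fetal liver and is silenced in the liver after birth.

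The 3′ regions of Malat1 and of the long Neat1 transcript carry letters known to fold into a triple helix that takes the place of a poly(A) tail. They are shown because the library protocol in the labels captured RNA on poly-T beads. The sequences were read from GENCODE M21 transcripts on GRCm38, minus strand, and are written 5′ to 3′. The capitals mark TTTTGCTTTT and AAAAGCAAAA, the 10-letter word and its reverse complement that the 3′ regions of both RNAs share.
Malat1, chr19:5795967-5796052: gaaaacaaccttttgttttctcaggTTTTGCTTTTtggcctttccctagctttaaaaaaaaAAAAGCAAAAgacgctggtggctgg
Neat1 long transcript, chr19:5824708-5824785: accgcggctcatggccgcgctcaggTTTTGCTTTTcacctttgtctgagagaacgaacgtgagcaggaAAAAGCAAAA
The motifs were 26 bases apart in Malat1 and 33 bases apart in Neat1. The annotated Malat1 transcript of 6983 bases goes on for 292 bases after the second motif, while the long Neat1 transcript ends with it. Searched on the transcript strand alone, TTTTGCTTTT followed within 100 bases by AAAAGCAAAA was found in 2 of 18930 annotated long noncoding transcripts (0.0106%), which belong to Malat1 and Neat1, the genes the word was read from. The short Neat1 transcript of 3004 bases ends elsewhere, with a polyadenylation signal, AATAAA, in capitals.
Neat1 short transcript, chr19:5842307-5842366: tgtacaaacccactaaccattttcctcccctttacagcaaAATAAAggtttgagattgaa
The part of the capture step in the levels of these RNAs was not tested.

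The host genes are shown through a snoRNA of each matched host, since these are what the genes are known for. Both are box C/D snoRNAs on the plus strand of GRCm38, with the C box letters TGATGA and the D box letters CTGA in capitals.
Snord47, in an intron of Gas5, chr1:161038082-161038158: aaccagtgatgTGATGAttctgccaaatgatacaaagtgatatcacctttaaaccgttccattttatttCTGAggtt
Snord99, in an intron of Snhg12, chr4:132310691-132310764: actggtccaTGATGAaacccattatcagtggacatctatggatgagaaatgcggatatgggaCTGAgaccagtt
GENCODE M21 places 10 snoRNA genes at 9 separate positions in introns of Gas5 and 5 at 4 positions in introns of Snhg12. Those of Snhg12 include Snora16a, Snora44 and Snora61, which are H/ACA snoRNAs. Snhg1 holds 8 and Snhg8 holds 1, the H/ACA snoRNA Snora24, again in introns. None of these snoRNAs was among the genes counted, so the values below are of the host genes and give no level of any snoRNA. Other annotated transcripts of the hosts have exons that overlap these snoRNAs. Reads of a snoRNA or of an unspliced intron thus cannot be told apart from those of the spliced host RNA.

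Host genes of this kind are known to start transcription at a run of C and T, the mark of RNAs whose translation follows growth signals. The first bases of the 4 hosts are shown from the RefSeq start table on GRCm38.p6, with 25 bases before the start base, and with the capitals marking a run of at least 5 C or T that covers the start base or begins within 5 bases after it.
Gas5, chr1:161035141-161035200, plus strand: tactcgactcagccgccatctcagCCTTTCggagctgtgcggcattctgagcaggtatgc
Snhg12, chr4:132308653-132308712, plus strand: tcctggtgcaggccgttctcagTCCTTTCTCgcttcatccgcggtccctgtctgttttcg
Snhg1, chr19:8723462-8723521, plus strand: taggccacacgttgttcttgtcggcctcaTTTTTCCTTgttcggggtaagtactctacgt
Snhg8, chr3:123508302-123508361, minus strand: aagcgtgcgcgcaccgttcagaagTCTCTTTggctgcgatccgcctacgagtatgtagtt
All 4 hosts held such a run at a listed start, and Malat1, the other member with a start in the table, did not. Among all 32851 listed starts 21.6% held a run on the gene's strand, and 27.2% on the other strand, as did 4 of 14 other noncoding hosts. The width of the search was set after these letters were seen, and a stricter form, a run that opens with C after a base other than C or T, was met by Gas5 alone of the 5 members, beside 12.4% of all starts. Gas5 has a further listed start without a run.

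The control library held 28021941 reads and the senescent library 25738075, on 17403 and 17592 genes. Counts were scaled with the TMM method, which sets most genes near equal, and levels are given as scaled CPM, the reads of a gene relative to 1000000 reads. The log2 ratio is that of senescent over control with a prior count of 1. Its 95% Clopper-Pearson interval covers counting error of reads only, as do all intervals and limits here unless a coefficient of variation is assumed. With 1 library per condition it holds no spread between samples. Reads copied by PCR and carrying no molecular identifier cannot be counted as separate molecules, so the interval may be too narrow even for counting error. Genes were called higher or lower where the log2 ratio passed 1.5 with an interval without 0 and the reads of both libraries summed to at least 10.

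Of the 5 members, all with at least 10 reads, 0 were called. Among all genes, 8.31% of 14383 were called, with 2.71% higher and 5.6% lower, and over the 1252 long noncoding RNA genes 11.3% were called, with 2.64% higher and 8.71% lower. The counting interval lay above 0 for 3 members (Malat1, Gas5 and Snhg12), below 0 for Neat1, and held 0 for H19. Over all genes it lay above 0 for 34% and below for 34.6%, and over long noncoding RNA genes for 13.1% and 24.8%. The 5 members together took 0.336% (control) and 0.320% (senescent) of the reads.

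**Figure D1:**
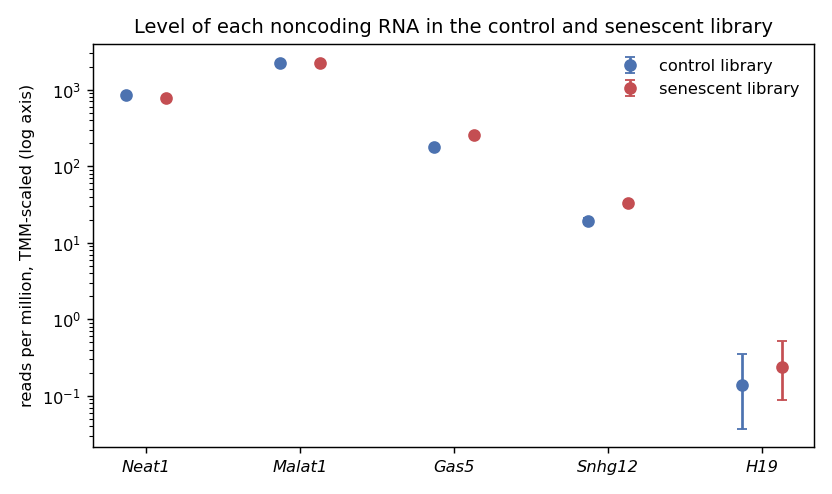
Scaled CPM (log axis) of Neat1, Malat1, Gas5, Snhg12 and H19 in the control (blue) and senescent (red) library, 1 library each, with 95% counting intervals that are narrower than the points except for H19. The points of Malat1 (2193 and 2252) and Neat1 (846 and 774) lie close together, and those of Gas5 (175 and 258) and Snhg12 (19.3 and 32.6) lie higher in the senescent library.

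The nuclear RNAs were the most heavily read members and were near level between the libraries. Malat1 (ENSMUSG00000092341, chr19:5795690-5802672, minus strand) had 63780 control and 55849 senescent reads, or 2193 and 2252 CPM. Its log2 ratio was 0.04 (0.02 to 0.05), and it turned to -0.07 with total-count scaling and to -0.00081 with upper-quartile scaling, so no direction can be given for it. Neat1 (ENSMUSG00000092274, chr19:5824708-5845478, minus strand) had 24599 and 19188 reads, or 846 and 774 CPM. It was 0.13 lower on the log2 scale in the senescent library, with a ratio of -0.13 (-0.16 to -0.10), and its ratio stayed below 0 under the 5 alternative scalings and prior counts. The interval of Neat1 did not overlap that of Malat1, its neighbour 22036 bases away, and per kilobase of exon Malat1 stood 7.71-fold (control) and 8.66-fold (senescent) above Neat1. The long and short Neat1 transcripts share their first part and cannot be told apart in a count per gene.

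Both matched host genes were higher in the senescent library. Gas5 (ENSMUSG00000053332, chr1:161034422-161038539, plus strand) had 5099 control and 6402 senescent reads, or 175 and 258 CPM, a log2 ratio of 0.56 (0.50 to 0.61) and a 1.47-fold level. Snhg12 (ENSMUSG00000086290, chr4:132308623-132311024, plus strand), a host without a settled function of its spliced RNA, had 560 and 809 reads, or 19.3 and 32.6 CPM. Its log2 ratio was 0.76 (0.60 to 0.92), a 1.69-fold level. The ratio of Gas5 was lower than that of Snhg12 by 0.20 on the log2 scale, with an exact conditional 95% interval of -0.37 to -0.04 for the difference, and the intervals of both lay apart from those of Malat1 and Neat1. Among all genes tested, ordered by log2 ratio, Snhg12 stood at percentile 90.5 and Gas5 at 84.5, with Malat1 at 53.8 and Neat1 at 42.7. With an assumed coefficient of variation of 0.1 between samples the intervals widened to 0.15 to 0.96 for Gas5 and 0.33 to 1.19 for Snhg12, and with 0.4 to -1.04 to 2.16 and -0.85 to 2.37, which hold 0. At 0.1 the intervals of Neat1 (-0.53 to 0.27) and Malat1 (-0.36 to 0.44) already held 0. The gene body of Gas5 runs into that of Zbtb37 on the other strand, without shared exons, and the use of strand in counting is not given in the sources used here.

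H19 (ENSMUSG00000000031, chr7:142575529-142578143, minus strand) was close to the limit of detection. Its counts were 4 reads (control) and 6 reads (senescent), or 0.138 and 0.242 CPM, where 3 reads correspond to 0.103 and 0.121 CPM. The log2 ratio was 0.68 with an interval from -1.26 to 3.08, so that no difference was detectable with so few reads.

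**Figure D2:**
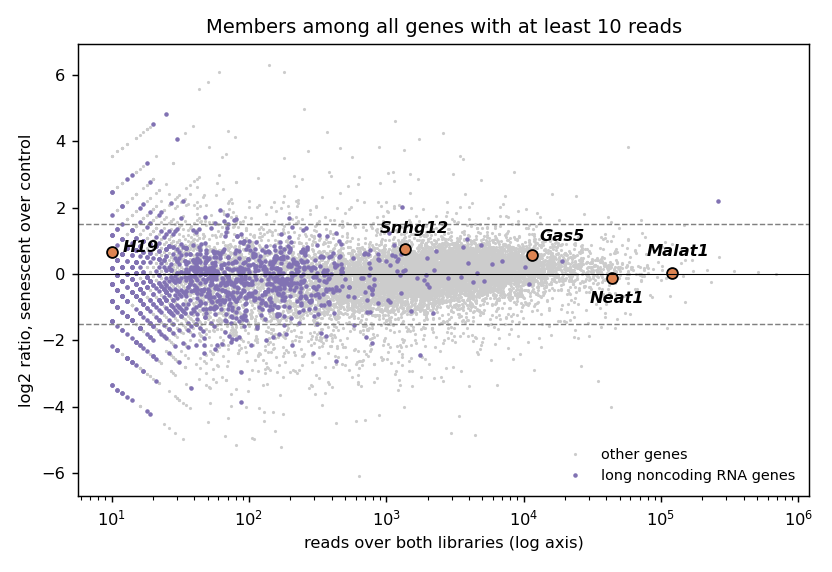
Log2 ratio of senescent over control (y axis) against the reads over both libraries (log x axis). Drawn are those of the 14383 genes with at least 10 reads that were paired with a symbol. Long noncoding RNA genes are in purple and the 5 members in orange. All members lie between the dashed lines at -1.5 and 1.5, with Malat1 and Neat1 at the right near the line of 0.

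Levels of different genes were compared per kilobase of annotated exon (RPKM, from TMM-scaled reads). Malat1 was the highest member, at 314 RPKM (control) and 322 RPKM (senescent), and ranked 3 of 1252 long noncoding RNA genes in both. Gas5 followed with 46.6 and 68.7 RPKM, at ranks 9 and 7. Neat1 had 40.7 and 37.2 RPKM over its 20771 bases, at ranks 10 and 12. The order of Gas5 and Neat1 depends on the length taken, since Neat1 would reach 282 and 258 RPKM if all its reads came from the transcript of 3004 bases, and Gas5 has 25 annotated transcripts with a union of 3760 exonic bases that includes retained introns. Snhg12 had 8.02 and 13.6 RPKM, at ranks 71 and 40. All these ranks count Gm42418, described at the end, as a long noncoding RNA gene. With 1 library per condition, no spread between samples was available for this order.

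Other noncoding snoRNA hosts were read from a list of 17 genes, of which 12 were in the table and 11 had at least 10 reads. 1 of the 11 was called higher and 0 lower, with a median log2 ratio of 0.47, beside -0.02 over all genes and -0.20 over long noncoding RNA genes. The gene called was Snhg11, annotated as protein coding in GENCODE M21, which had 3 control and 13 senescent reads and stood at 2.0 (0.48 to 4.8) on the log2 scale. Over all genes tested 2.71% were called higher and 5.6% lower. The interval lay above 0 for 8 hosts, below for 1 and held 0 for 2. Over all genes it lay above 0 for 34% and below for 34.6%, and over long noncoding RNA genes for 13.1% and 24.8%. Snhg5 had 972 and 1331 reads and stood at 0.68 (0.56 to 0.80). Snhg15 had 555 and 723 reads and stood at 0.61 (0.45 to 0.77). Epb41l4aos had 203 and 248 reads and stood at 0.52 (0.24 to 0.79). These lay beside Gas5 and Snhg12, while Snhg14, a very long transcript of the imprinted Prader-Willi region, was lower at 258 and 122 reads, and stood at -0.85 (-1.17 to -0.53). Snhg3, 36990 bases from Snhg12, was near level with 701 and 632 reads, at 0.08 (-0.08 to 0.24), so its interval held 0 without few reads. Zfas1, the host of this list with the most reads, named after its values were seen, had 2893 and 3045 reads and stood at 0.30 (0.23 to 0.38). With Gas5 and Snhg12 added, 10 of 13 matched hosts had an interval above 0 and 1 below. At 100 reads or more the counts were 9 and 1 of 11. Hosts with few reads have wide intervals, so these counts depend on depth as well as on the ratio.

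**Figure D3:**
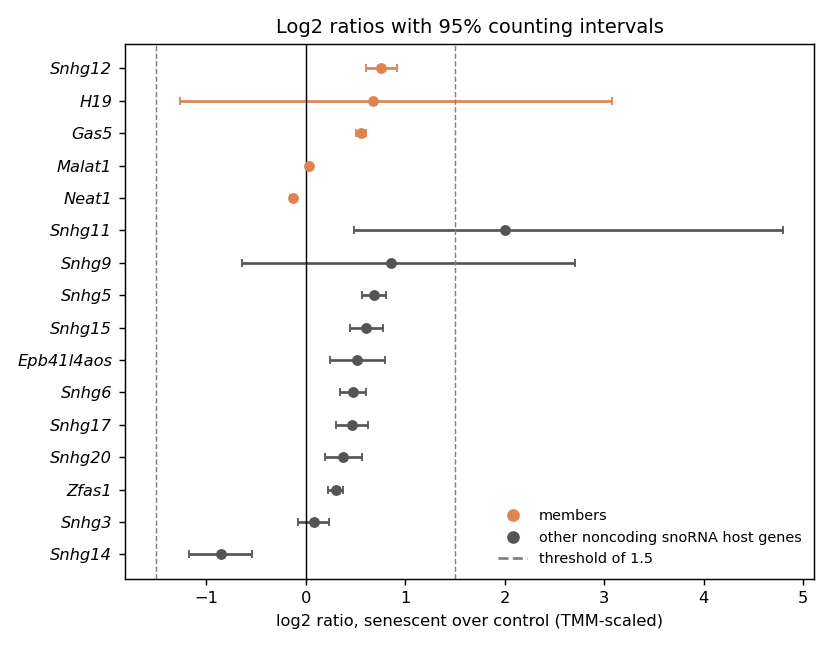
Log2 ratios of senescent over control (x axis) for the 5 members (orange) and the 11 other noncoding snoRNA hosts (grey), with 95% counting intervals and dashed lines at the threshold of 1.5. Gas5, Snhg12, Snhg5 and Snhg15 lie between 0.56 and 0.76, Snhg14 lies at -0.85, and H19, Snhg9 and Snhg11 have wide intervals.

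Protein-coding genes that host snoRNAs were listed as 23 genes, all with at least 10 reads. 0 were called, 18 had an interval above 0 and 2 below, and the median log2 ratio was 0.17. Over all genes tested 8.31% were called, and the interval lay above 0 for 34% and below for 34.6%. All 23 hosts had at least 100 reads, beside 11291 of all 14383 genes, and intervals are narrower with more reads. The largest was Nop56, which encodes a core protein of box C/D particles, with 5760 and 9826 reads and a log2 ratio of 1.00 (0.95 to 1.05). Nop56 and Dkc1 are also on the list of snoRNP core and assembly genes below, so these lists are not separate. Rcc1, the exchange factor of the Ran GTPase, lies 20895 bases from Snhg12 and had 1164 and 1678 reads. Its log2 ratio of 0.76 was, of 114 listed genes with at least 100 reads, the nearest to that of Snhg12, a likeness of 1 ratio and no more. By the same measure Gas5 was nearest to Srrm1 (0.55), a splicing coactivator, and Neat1 to Firre (-0.12), a noncoding RNA of the X chromosome. Malat1 was nearest to Rpl17 (0.04), a ribosomal protein, and H19, with its few reads, to Snhg5 (0.68).

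The proteins that build snoRNA particles and the related bodies were read from 4 lists, and in each of them 0 genes were called. Over all genes tested 8.31% were called, and the interval lay above 0 for 34% and below for 34.6%. Every gene of the 4 lists had at least 100 reads, and intervals are narrower with more reads. The 17 snoRNP core and assembly genes had a median log2 ratio of 0.57, with 15 intervals above 0 and 0 below. Nolc1, a nucleolar chaperone of snoRNPs, had 6485 and 10863 reads and a log2 ratio of 0.97, and Rrp9, which binds the U3 snoRNA, had 1205 and 1955 reads and 0.93. Nop58, the partner of Nop56, had 5864 and 8438 reads and a log2 ratio of 0.75. The 15 nonsense-mediated decay genes had a median of 0.27, with 10 intervals above 0 and 2 below, and Upf1, the central helicase of the pathway, had 2621 and 3357 reads and a log2 ratio of 0.59. The 16 nuclear speckle and SR protein genes had a median of 0.22, with 12 intervals above 0 and 1 below, among them Srrm2, a speckle scaffold, with 8965 and 11331 reads and 0.57.

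Paraspeckle proteins, the partners of Neat1, lay on both sides of 0, as did the genes of the whole table. Of 16 genes, 7 had an interval above 0 and 6 below, beside 34% and 34.6% over all genes tested. The median log2 ratio was 0.02, beside -0.02 over all genes, and it turned to -0.09 with total-count scaling. Cirbp, a cold-inducible RNA-binding protein, had 1733 and 1089 reads and a log2 ratio of -0.44. Nudt21, a subunit of the cleavage factor that sets poly(A) sites, had 2334 and 1474 reads and -0.43. Taf15, an RNA-binding protein of the FET family, had 4194 and 4658 reads and a log2 ratio of 0.38.

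**Figure D4:**
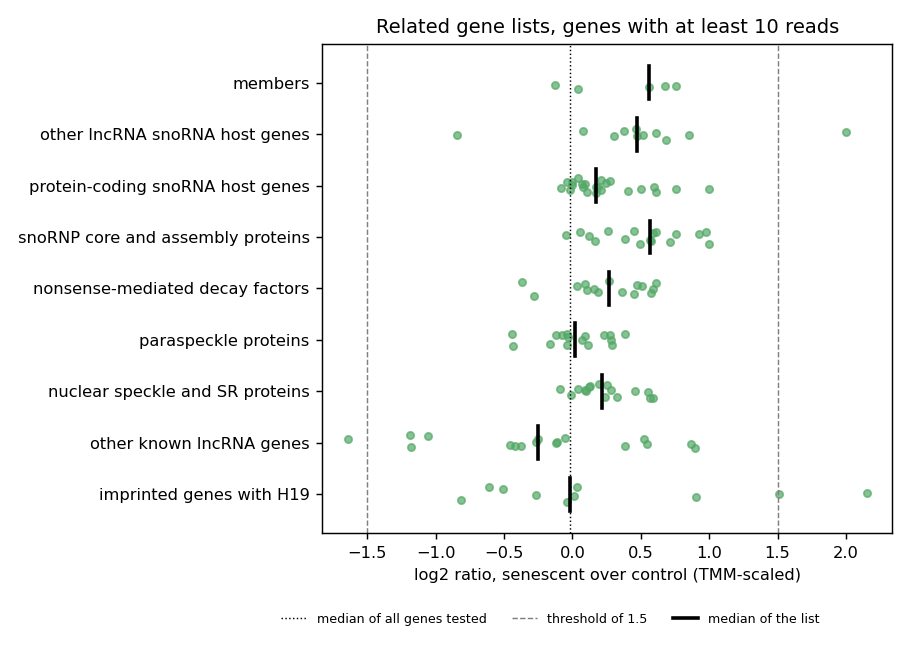
Log2 ratios of senescent over control (x axis) of genes with at least 10 reads in the members and 8 related lists, each point a gene, the bar the list's median and the dotted line the median of all genes. The medians of the snoRNP proteins (0.57), the members (0.56) and the other noncoding hosts (0.47) lie farthest right, and that of other known long noncoding RNAs (-0.26) farthest left. The members' median includes H19 with its few reads, and was 0.30 at 100 reads or more, where H19 is not tested.

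Imprinted genes read beside H19 were 21, of which 10 had at least 10 reads. 1 was called higher, Phlda2, a growth restraint gene of the placenta, with 15 and 60 reads and a log2 ratio of 2.15 (1.40 to 3.15), and 0 were called lower. Over all genes tested 2.71% were called higher and 5.6% lower, and the interval lay above 0 for 34% and below for 34.6%. Igf2, which shares its enhancers with H19, stood at 1.51 on the log2 scale (-0.19 to 4.34), from 3 control and 9 senescent reads. Igf2r, the receptor that clears Igf2, had 1599 and 2557 reads and 0.91, while Peg3, a zinc finger gene expressed from the paternal copy, had 24362 and 13613 reads and a log2 ratio of -0.61. The median of the list was -0.01, with 2 intervals above 0 and 3 below, and it turned to 0.27 when the 18 genes with at least 1 read were taken.

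Genes within 50 kb of any of the 7 members were 27 with at least 10 reads, with a median log2 ratio of 0.14. Of these, 3 were called higher and 0 lower, beside 2.71% higher and 5.6% lower over all genes tested. The 3 had few control reads: Serpinc1, which encodes antithrombin and lies 28559 bases from Gas5, had 3 and 19 reads and stood at 2.52 on the log2 scale (1.13 to 5.29). Prss12, 955 bases from Snhg8, had 1 and 20 reads, a ratio of 3.56 (1.91 to 9.92), and Ndst3, 17762 bases from Snhg8, had 8 and 39 reads, a ratio of 2.37 (1.40 to 3.82). Slc3a2, the heavy chain of amino acid transporters, starts 106 bases from Snhg1 and had 15903 and 27058 reads and stood at 1.00 (0.97 to 1.02). Near Neat1, Slc25a45, a mitochondrial carrier, had 980 and 387 reads and a log2 ratio of -1.11. Neighbours thus lay on both sides of the members' ratios.

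The cell type labels were read from listed markers, and their part in the ratios above was not tested. All 12 hepatocyte markers had at least 10 reads and summed to 7859 CPM (control) and 9266 CPM (senescent), with 0 called higher and 2 lower, Alb at 32076 and 2917 reads and Apoa1 at 2026 and 197. The higher sum was that of the keratins Krt8 and Krt18, which other simple epithelia also express: without these, singled out after their values were seen, the other 10 summed to 2360 and 971 CPM, and the median log2 ratio of all 12 was -0.17, with 4 intervals above 0 and 5 below. Of 5 cholangiocyte markers 4 had at least 10 reads, and the list summed to 1897 and 1421 CPM. The 6 macrophage markers summed to 2.65 and 6.29 CPM, with Adgre1 and Clec4f at 0 in both libraries. Only 3 of them had at least 10 reads, and 2 of these were called higher, Ptprc with 27 and 76 reads and Csf1r with 15 and 40. The 7 fibroblast and stellate markers summed to 0.928 and 0.242 CPM. Only 1 of them had at least 10 reads, Col1a1 at 21 and 1 reads, and it was called lower. The 5 endothelial markers summed to 0.206 and 0.524 CPM, and 0 of them had at least 10 reads. Over all genes tested 2.71% were called higher and 5.6% lower. Mitochondrially encoded genes took 2.78% and 2.63% of the reads. A change in the share of cells that make an RNA and a change in its amount per cell cannot be told apart in these libraries.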

How the data were processed

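For each library, the deposited values are raw counts of reads, 1 per Ensembl gene, without normalization. The submitters' processing notes name CASAVA, STAR, DESeq2, edgeR and mm10; the counting tool, the annotation and the use of strand are not given in the sources used here. The extract protocol in the labels describes poly-T capture and random-primed cDNA. Columns were assigned by the initials of the sample titles (Old and Young). Of 35275 genes, 34490 (97.8%) were paired with a symbol of GENCODE M21 on GRCm38, the same build as mm10.

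Counts were scaled with TMM in edgeR 4.0.16 (R 4.3.3), whose factors were 1.04 (control) and 0.964 (senescent). The ratios and their intervals came from Python 3.11.15 (scipy 1.17.1, numpy 2.4.6, pandas 2.3.3), and the plots from matplotlib 3.10.9. With 1 library per condition, the tests of edgeR and DESeq2 have no replicates to work on, so no p-values are given. The threshold of 1.5 is that of the study's methods. The procedure was tested on data simulated with counting error alone and with log2 changes larger than those of the members. That test does not show how the calls and intervals behave with spread between samples. The alternatives were total-count, DESeq2 1.42.0 and upper-quartile scaling, a prior count of 0.125 or 5, a minimum of 1 or 100 reads, a threshold of 1 or 2, and an assumed coefficient of variation of 0.1 or 0.4.

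The members and lists were chosen with earlier results of these data known. Named were all members, the called genes of each list (at most 4 per direction) and those of its 4 largest log2 ratios at 100 reads or more, genes within 50 kb of a member, and the listed gene nearest to each member. Not every gene named by these criteria is reported here.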

Additional observations from a re-analysis of the deposited data

How the results depend on the processing

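No member passed the threshold under any of 11 alternatives. Total-count scaling moved the median over all genes by -0.11 (log2), and with it Neat1 was at -0.24, Malat1 at -0.069 and Gas5 at 0.45, and the list medians were 0.45 for the members, -0.089 for paraspeckle proteins, 0.11 for speckle proteins, 0.46 for snoRNP genes, 0.16 for decay factors and 0.065 for protein-coding hosts. With upper-quartile scaling Neat1 was at -0.17, Malat1 at -0.00081 and the protein-coding hosts at 0.13. The members' median was 0.40 with a prior count of 5 and 0.30 at 100 reads or more, where H19 is not tested. Genes called over the whole table were 390 higher and 805 lower; they were 259 higher with a prior count of 5, 256 higher with a coefficient of variation of 0.4, 141 and 395 at 100 reads or more, 732 and 1435 with a threshold of 1, and 219 and 460 with a threshold of 2. Over the 5 scalings and prior counts Gas5 ranged from 0.45 to 0.56, Snhg12 from 0.65 to 0.76 and H19 from 0.40 to 0.79. The imprinted genes' median ranged from -0.15 at 100 reads or more to 0.27 at 1 read or more. No paired analysis was possible because the labels carry no replicate numbers and each condition has 1 library, so leaving out a replicate was not possible either. Depth limits H19, Snhg9 and Snhg11, whose intervals span more than the threshold.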

Other observations

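Of 35 other known long noncoding RNA genes, 28 were matched by symbol, 17 had at least 10 reads and 7 were at 0 in both libraries. 0 were called higher and 1 lower, Jpx, an activator of the X inactivation RNA, with 90 control and 24 senescent reads and a log2 ratio of -1.64 (-2.39 to -1.01). The median was -0.26, with 4 intervals above 0 and 7 below. Over long noncoding RNA genes tested, 2.64% were called higher and 8.71% lower, and the interval lay above 0 for 13.1% and below for 24.8%. Lncenc1, known from naive embryonic stem cells, had 1595 and 597 reads, a log2 ratio of -1.19, and Dleu2, a microRNA host, had 89 and 36 reads and -1.06. Mir17hg, the host of a microRNA cluster known in proliferation, had 182 and 290 reads and a log2 ratio of 0.90. Trp53cor1, a noncoding target of p53 named here after its values were seen, had 146 and 93 reads and a log2 ratio of -0.42 (-0.81 to -0.04).

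Over all long noncoding RNA genes with at least 10 reads, 33 were called higher, 3 of them with 100 reads or more, and 109 lower, 18 of them with 100 reads or more. The genes with the most reads in each direction are named after their values were seen. Beside Gm42418, given last, those higher were 1700006J14Rik, whose body overlaps that of Hmga2, with 291 and 1012 reads and a log2 ratio of 2.02, and 2210008F06Rik, with 52 and 144 reads and 1.68. Lower were AW112010, with 1509 and 238 reads and a log2 ratio of -2.43, and Gm17035, whose body overlaps that of Ndrg1, with 660 and 133 reads and -2.07. For overlapping genes the split of reads is uncertain. The called gene with the most reads was Gm42418 (chr17:39846958-39848788), which RefSeq lists as a synonym of a pseudogene related to ribosomal RNA, with 53082 and 206929 reads, a log2 ratio of 2.19. With it, Malat1 and Neat1 together took 30.4% (control) and 18.3% (senescent) of the long noncoding RNA reads, and without it 37.3% and 36.9%.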
